A study of Saccharomyces cerevisiae with 3 samples.

Results

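Probe sets c6Mbo0751 to c6Mbo1000 of a tiling array of budding yeast (Saccharomyces cerevisiae) chromosome VI are described here, in 3 samples from chromatin endogenous cleavage (ChEC). They were chosen by the number in their identifiers and not by any measured value. They are 250 probe sets, and the 1000 others on the array serve as the comparison. The number is taken as the order along the chromosome, which no source used here states. The positions of the probe sets, their sequences and the genes they cover were not analysed here, so promoters and coding regions are not named.

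In ChEC a protein is fused to micrococcal nuclease (MN), and when calcium is let into the cells the fusion cuts DNA close to where the protein lies. Nup2 is a nucleoporin on the nuclear side of the pore complex, and it is known from yeast for contacts with chromatin as well as for a role in nuclear transport. H2b is a histone, around which DNA is wrapped into nucleosomes, so it lies along most of the genome. The study asked where on chromosome VI Nup2 meets the DNA. The H2b-MN fusion can cut chromatin in general.

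The Nup2-MN sample was cleaved in vivo for 5 min at 30 °C and the H2b-MN sample for 1 min on ice. The third sample was uncleaved DNA. All 3 came from yeast kept on 2% raffinose and given 2% galactose for 1 h. The labels give no strain, no promoter for the fusions and no clone number. Each value was the authors' mean of 3 independent experiments on a log2 scale, so every probe set had 1 value per sample. The spread between experiments was not analysed here, and no difference below could be tested or set against experimental error. The sources used here do not say which way cleavage moves the signal, so above and below refer to array signal alone. Nup2-MN and H2b-MN differed in time and temperature of cleavage as well as in the fusion, and these cannot be told apart. The Nup2-MN difference and the H2b-MN difference, as they are called below, are each taken from the same uncleaved values.

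Over the 250 probe sets the median log2 signal was 7.45 in Nup2-MN, 7.76 in H2b-MN and 7.74 in uncleaved DNA. Over the 1000 others Nup2-MN had a median of 7.39, H2b-MN of 7.52 and uncleaved DNA of 7.50. Nup2-MN gave the lowest of the 3 signals in 134 of the 250 members (53.6%) and in 418 of the others (41.8%). Uncleaved DNA gave the highest in 124 members (49.6%) and in 422 of the others (42.2%). The brightest member was c6Mbo0831 in Nup2-MN (10.75) and in uncleaved DNA (10.15), and c6Mbo0786 in H2b-MN (10.42). The dimmest was c6Mbo0789 in Nup2-MN (4.66) and in uncleaved DNA (4.72), and c6Mbo0766 in H2b-MN (4.68).

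The Nup2-MN difference had a median of -0.28 on the log2 scale over the 250 probe sets, and of -0.12 over the others. It was above 0 in 82 members (32.8%), against 429 of the others (42.9%). By block of 250 the others had 36.4%, 33.6%, 49.6% and 52.0% above 0, in order, so the first 2 of these were near the members. The median over the whole array was -0.15, so the members differed from it by -0.13. Centring each column on its own median moves every difference alike, so it cannot change this distance. Quantile normalization of the 3 columns gave -0.14. Of the 4 other blocks of 250 numbers, 251 to 500 had a lower median, at -0.32.

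In 9 of the 250 probe sets (3.60%) Nup2-MN lay above uncleaved DNA by 2-fold or more, where 6.80% of the whole array did. In another 4 (1.60%) it lay below by 2-fold or more, where 1.84% of the array did. The 4 other blocks of 250 held 11, 17, 24 and 24 probe sets past 2-fold above, in order along the chromosome. The count was 16 here and 21, 20, 28 and 39 in the other blocks after centring, and 9 here and 16, 17, 24 and 30 with quantile normalization. Members above made up 69.2% of those past 2-fold, where the whole array had 85 above and 23 below. After centring they made up 88.9% (16 above, 2 below), and the other blocks had 2, 3, 0 and 1 below. With quantile normalization 9 were above and 3 below. At a 1.5-fold threshold the balance turned, with 38 members above and 73 below (34.2% above). The whole array was counted at 0.5 log2 instead, and its balance turned as well. There 17.2% of the members lay above and 33.6% below, against 19.2% and 28% of the array. With 1 value per sample, whether the block differs from the others was not tested.

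**Figure D1:**
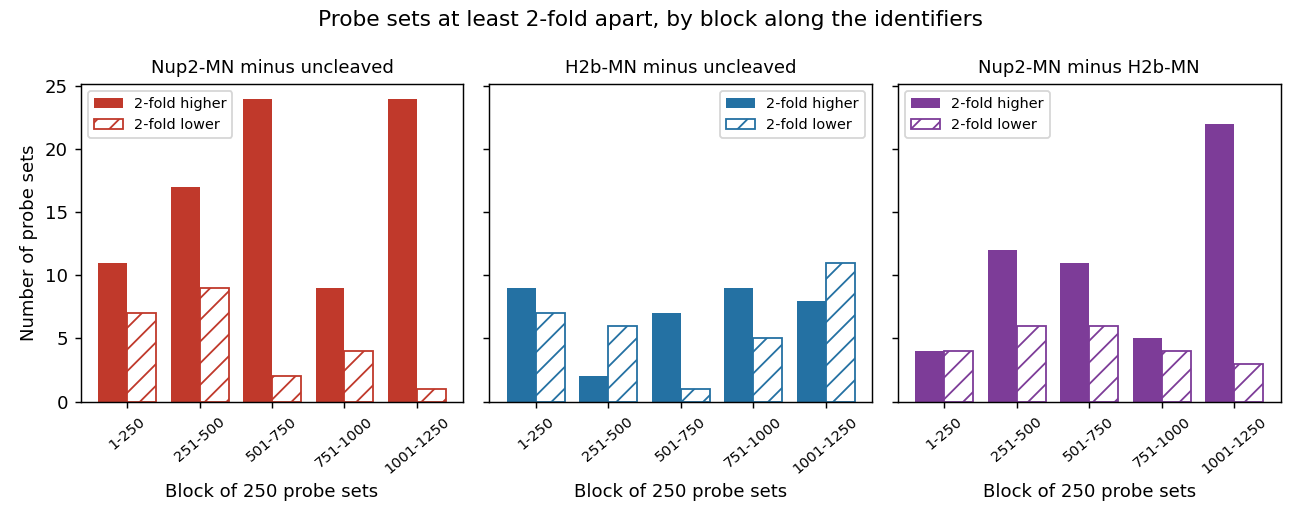
Number of probe sets (y axis) at least 2-fold higher (filled bars) and at least 2-fold lower (hatched bars) in each block of 250 along the identifiers (x axis), with 1 panel per comparison. The block described here, which ends at 1000, holds 9 higher and 4 lower in the left panel (Nup2-MN against uncleaved), 9 and 5 in the middle panel (H2b-MN against uncleaved), and 5 and 4 in the right panel (Nup2-MN against H2b-MN).

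The highest member was c6Mbo0830, at 10.18 in Nup2-MN and 9.83 in H2b-MN, against 7.76 in uncleaved DNA. The Nup2-MN difference was 2.41 (5.33-fold), and both cleaved samples stood well above the uncleaved one. Second came c6Mbo0977, at 9.48 in Nup2-MN and 9.12 in H2b-MN, against 7.85 in uncleaved DNA (Nup2-MN difference 1.63). The third, c6Mbo0751, read 8.87 in Nup2-MN and 7.20 in H2b-MN, against 7.47 in uncleaved DNA, so here Nup2-MN alone was high (1.40). It is the first member by number, and c6Mbo0750, just outside the range, had a Nup2-MN difference of 0.42. It was followed by c6Mbo0965, at 9.56 in Nup2-MN and 8.93 in H2b-MN, against 8.28 in uncleaved DNA (1.28). Next was c6Mbo0829, the neighbour of the highest member, at 8.74 in Nup2-MN and 8.40 in H2b-MN, against 7.46 in uncleaved DNA (1.27).

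At the low end, c6Mbo0985 read 6.38 in Nup2-MN and 6.37 in H2b-MN, against 7.59 in uncleaved DNA (Nup2-MN difference -1.22). Both cleaved samples were low by nearly the same amount. A like pattern was seen at c6Mbo0841, with 7.97 in Nup2-MN and 7.97 in H2b-MN, against 9.06 in uncleaved DNA (-1.08). At c6Mbo0852 the samples were spread out, with 6.59 in Nup2-MN and 7.34 in H2b-MN, against 7.74 in uncleaved DNA (-1.15). The others at this end were c6Mbo0984 (7.39 in Nup2-MN, 7.64 in H2b-MN, 8.46 in uncleaved DNA, difference -1.06) and c6Mbo0857 (7.83 in Nup2-MN, 8.43 in H2b-MN, 8.81 in uncleaved DNA, difference -0.98). The last member, c6Mbo1000, had a Nup2-MN difference of -0.71, and c6Mbo1001 beyond it of -0.24. Nearest to 2-fold on the high side were c6Mbo0838 at 1.01, inside, and c6Mbo0943 at 0.99, outside.

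**Figure D2:**
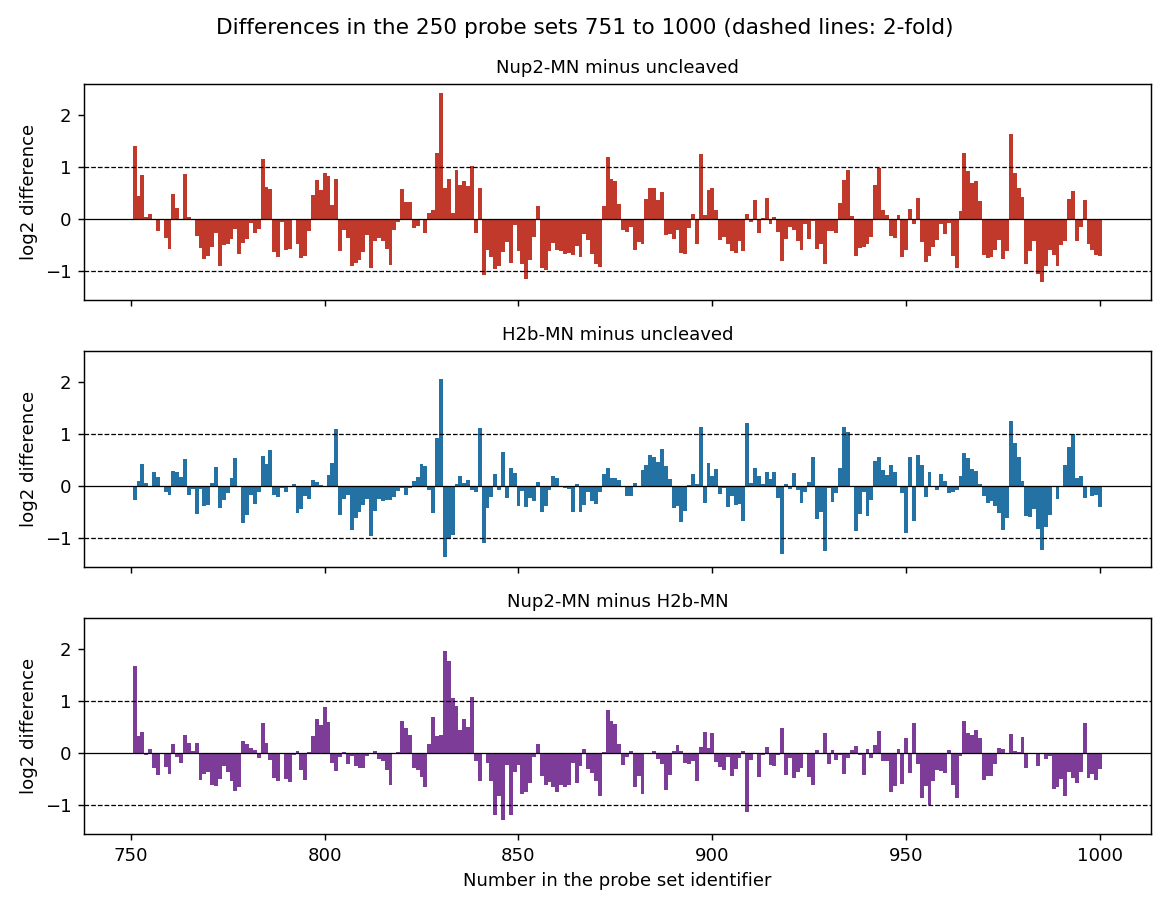
Log2 difference (y axis) of each of the 250 probe sets by number (x axis), for Nup2-MN against uncleaved (top), H2b-MN against uncleaved (middle) and Nup2-MN against H2b-MN (bottom), with dashed lines at 2-fold. The tallest bar is c6Mbo0830 in the first 2 panels (2.41 and 2.07) and c6Mbo0831 in the third (1.97).

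H2b-MN was centred close to uncleaved DNA. Its difference had a median of -0.04 over the 250 probe sets and -0.04 over the others, and 110 members (44.0%) were above 0, against 46.5% of the others. In 9 members (3.60%) it lay above uncleaved DNA by 2-fold or more, where 2.80% of the array did. In 5 (2.00%) it lay below by as much, where 2.40% of the array did. Both shares lay near those of the whole array.

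Behind c6Mbo0830 (H2b-MN difference 2.07) and c6Mbo0977 (1.26), the next highest in H2b-MN was c6Mbo0909. It read 6.69 in Nup2-MN and 7.82 in H2b-MN, against 6.61 in uncleaved DNA, so H2b-MN alone stood high (1.21). The fourth, c6Mbo0934, read 8.34 in Nup2-MN and 8.73 in H2b-MN, against 7.60 in uncleaved DNA (1.13). The fifth, c6Mbo0897, read 9.24 in Nup2-MN and 9.12 in H2b-MN, against 7.99 in uncleaved DNA (1.13). Its neighbours did not share this: c6Mbo0896 had an H2b-MN difference of 0.05 and c6Mbo0898 of -0.33.

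The lowest H2b-MN difference was at c6Mbo0831, at 10.75 in Nup2-MN and 8.78 in H2b-MN, against 10.15 in uncleaved DNA (-1.37). It lies next to c6Mbo0830, the highest. At c6Mbo0918 the signals were 6.62 in Nup2-MN and 6.12 in H2b-MN, against 7.42 in uncleaved DNA (-1.30). At c6Mbo0929 they were 6.92 in Nup2-MN and 6.52 in H2b-MN, against 7.78 in uncleaved DNA (-1.26). Neighbours of the last 2 were nearer to 0: c6Mbo0917 and c6Mbo0919 had H2b-MN differences of -0.22 and 0.04, and c6Mbo0928 and c6Mbo0930 of -0.49 and -0.03. Next lowest were c6Mbo0985 (-1.22) and c6Mbo0841 (-1.09), whose signals are given above.

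Set directly against H2b-MN, Nup2-MN had a median difference of -0.14 over the 250 probe sets and -0.05 over the others. Block 251 to 500 had a median of -0.15. After centring the members' median was 0.02, so its sign depends on the offset between the columns. It differed from the median of the whole array by -0.08 as deposited, which centring cannot change, and by -0.06 with quantile normalization. Nup2-MN was above H2b-MN by 2-fold or more in 5 members (2.00%), where 4.32% of the array was, and below it by as much in 4 (1.60%), where 1.84% of the array was. The other blocks of 250 held 4, 12, 11 and 22 past 2-fold above, in order. Members above made up 55.6% of those past 2-fold, where the whole array had 54 above and 23 below. Their share was 72.7% (8 above, 3 below) after centring and 50.0% (4 above, 4 below) with quantile normalization. After centring the other blocks held 7, 15, 18 and 31 above and 1, 4, 4 and 2 below. With quantile normalization they held 4, 7, 12 and 26 above and 3, 4, 5 and 2 below. At 1.5-fold 17 members were above and 35 below (32.7% above), so here too the balance turned. At 0.5 log2, 8.40% of the members lay above and 20.4% below, against 13.1% and 15.6% of the array.

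Of these 9 members, 7 lay between c6Mbo0831 and c6Mbo0848. Nup2-MN exceeded H2b-MN most at c6Mbo0831 (log2 difference 1.97, with the signals given above). At its neighbour c6Mbo0832 the signals were 9.10 in Nup2-MN and 7.33 in H2b-MN, with 8.33 in uncleaved DNA (1.77). The third was c6Mbo0751, at 1.67. Then came c6Mbo0838, at 10.05 in Nup2-MN and 8.96 in H2b-MN, with 9.03 in uncleaved DNA (1.09). At c6Mbo0833 the signals were 7.37 in Nup2-MN and 6.31 in H2b-MN, with 7.25 in uncleaved DNA (1.06). H2b-MN thus sat near uncleaved DNA at c6Mbo0838 with Nup2-MN above both, while Nup2-MN sat near uncleaved DNA at c6Mbo0833 with H2b-MN below both.

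Nup2-MN was lowest relative to H2b-MN at c6Mbo0846, with 7.30 in Nup2-MN and 8.59 in H2b-MN (log2 difference -1.29), and with 7.93 in uncleaved DNA. Close to it, c6Mbo0848 read 6.90 in Nup2-MN and 8.09 in H2b-MN, with 7.74 in uncleaved DNA (-1.19). At c6Mbo0844 the signals were 7.94 in Nup2-MN and 9.13 in H2b-MN, with 8.90 in uncleaved DNA (-1.19). In all 3 the uncleaved signal lay between those of the cleaved samples. The other members at this end were c6Mbo0909 (-1.12), which was high in H2b-MN alone, and c6Mbo0956 (-0.98), at 8.41 in Nup2-MN and 9.40 in H2b-MN, with 9.13 in uncleaved DNA.

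Along the numbers, the Nup2-MN difference alternated between stretches above and below 0. Stretches of 3 or more neighbours on one side numbered 12 above 0, with 63 members (25.2%), and 17 below 0, with 155 members (62.0%). Of the 1000 others, 37.0% lay in such stretches above 0 and 51.0% in those below, beside the lower share of single members above 0 given earlier. The median length was 5 members above and 7 below, and among the others 4.5 above and 6 below. The longest below ran over 18 members, 766 to 783 (mean Nup2-MN difference -0.43), and the longest above over 12, 827 to 838 (mean 0.79). Among the 1000 others, a larger set, the longest ran over 32 probe sets below and 30 above. These counts and limits take 0 as deposited, where the column median of the whole array is 7.42 in Nup2-MN and 7.57 in uncleaved DNA.

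A turn from high to low lay after 838 (the places described here and next were picked after their values were seen). In the 12 probe sets 827 to 838, Nup2-MN was above uncleaved DNA by 0.11 to 2.41, while the H2b-MN difference averaged -0.05, with 6 members above 0 and 6 below. In the 14 probe sets 841 to 854, the Nup2-MN difference had a mean of -0.72 and values from -1.15 to -0.11. In the 16 probe sets 856 to 871 its mean was -0.67, with values from -0.98 to -0.28. The H2b-MN difference averaged -0.13 and -0.18 over these stretches. Against H2b-MN, Nup2-MN averaged 0.83 over the first of the 3 stretches, -0.59 over the second and -0.49 over the third. Single members lay between the stretches, among them c6Mbo0840, where H2b-MN was the higher of the cleaved samples (Nup2-MN difference 0.60, H2b-MN difference 1.12).

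A series of 4 shorter turns ran from 964 to 991. The Nup2-MN difference averaged 0.69 over the 6 probe sets 964 to 969, -0.65 over the 7 probe sets 970 to 976, 0.88 over the 4 probe sets 977 to 980 and -0.74 over the 11 probe sets 981 to 991. The H2b-MN difference averaged 0.34, -0.45, 0.69 and -0.44 over the same stretches. Against H2b-MN, Nup2-MN averaged 0.35, -0.20, 0.19 and -0.30. Other stretches held values further apart between the cleaved samples. The H2b-MN difference averaged 0.27 over the 4 probe sets 823 to 826 where Nup2-MN averaged -0.15, 0.04 over the 10 probe sets 954 to 963 where Nup2-MN averaged -0.50, and -0.08 over the 3 probe sets 820 to 822 where Nup2-MN averaged 0.41.

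**Figure D3:**
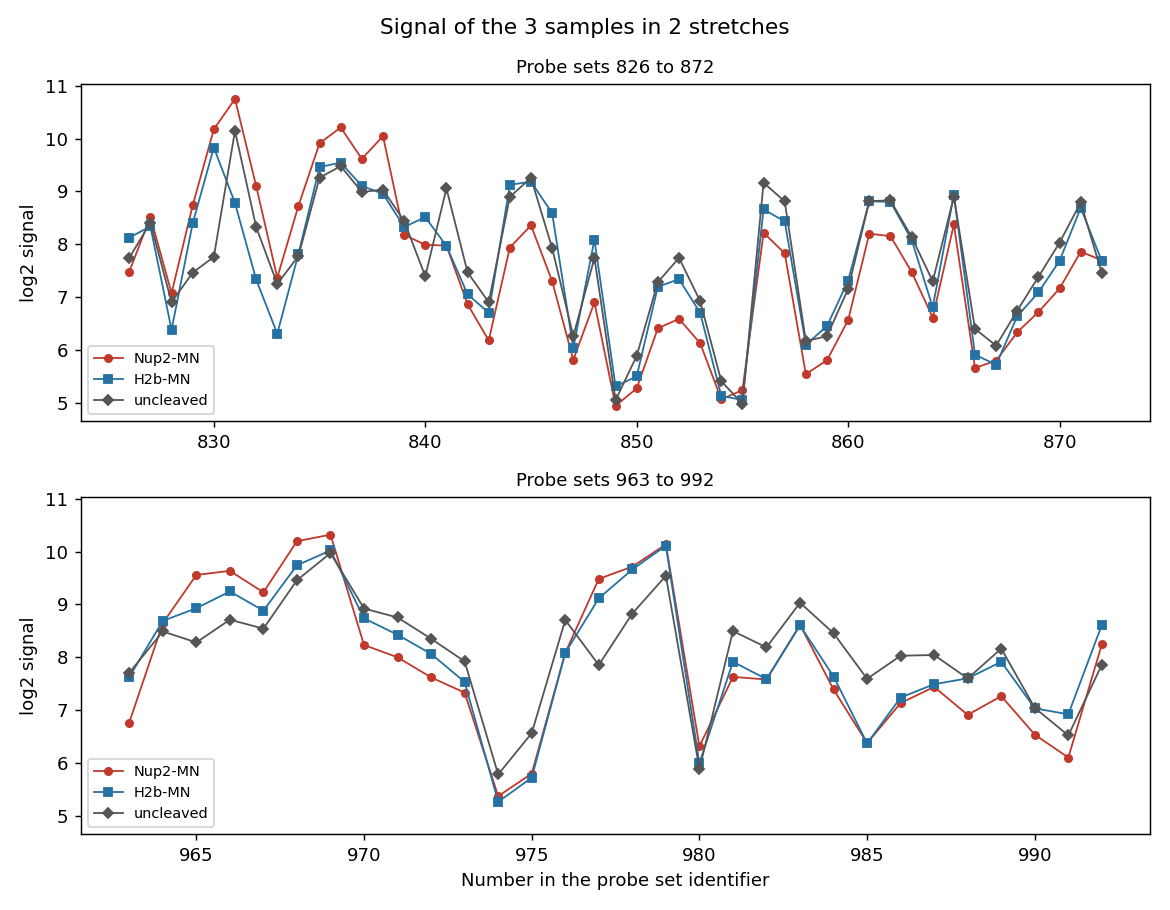
Log2 signal (y axis) of Nup2-MN (circles), H2b-MN (squares) and uncleaved DNA (diamonds) by probe set number (x axis), around the highest member, c6Mbo0830 (top), and the second highest, c6Mbo0977 (bottom). In the top panel Nup2-MN lies above uncleaved DNA in all 12 probe sets from 827 to 838 and below it in all 14 from 841 to 854, and in the bottom panel the mean difference from 970 to 976 is -0.65 in Nup2-MN and -0.45 in H2b-MN.

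Runs were counted as 3 or more neighbours that each differed by at least 0.5 to the same side. For the Nup2-MN difference, 7 runs above held 26 members (10.4%), where 10.6% of the array lay in such runs. The longest was 834 to 838, with a mean of 0.79. Of the 3 runs of 4, the larger means were those of 829 to 832 (1.27) and 965 to 968 (0.91), and the third was 798 to 801 (0.75). H2b-MN differed from uncleaved DNA by means of 0.07, 0.16 and 0.45 over 834 to 838, 829 to 832 and 965 to 968. The 12 runs below held 51 members (20.4%), where 18.0% of the array did. Their longest were 984 to 990 (mean -0.84), 860 to 866 (mean -0.64) and 841 to 846 (mean -0.82). H2b-MN had means of -0.52, -0.12 and -0.15 over the same numbers. After centring the 12 runs below were 7 and the longest held 3 members, and with quantile normalization the 7 runs above were 4, with 14 members. For these settings the runs of the whole array were not counted.

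The H2b-MN difference had fewer runs. Its 1 run above, 977 to 979, had a mean of 0.89 and held 3 of the 250 members, where 3.04% of the array lay in such runs. Nup2-MN had a mean of 1.04 there. The 4 runs below held 13 members (5.20%), where 5.76% of the array did. The longest, 984 to 987, had an H2b-MN mean of -0.85 and a Nup2-MN mean of -0.95. At 831 to 833 H2b-MN had a mean of -1.10 and Nup2-MN of 0.50, so the cleaved samples lay on opposite sides of uncleaved DNA. The third, 974 to 976, had a mean of -0.66 in H2b-MN and -0.60 in Nup2-MN.

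In the direct comparison, 4 runs with Nup2-MN above H2b-MN held 14 members (5.60%), where 7.92% of the array lay in such runs. The highest was 831 to 834, with a mean of 1.43. There the gap came from both sides, with a mean of 0.61 from uncleaved DNA in Nup2-MN and -0.82 in H2b-MN. Over 798 to 801 (mean 0.67) H2b-MN was close to uncleaved DNA (0.08) and Nup2-MN above it (0.75), and over 836 to 838 (mean 0.76) the values were 0.03 for H2b-MN and 0.79 for Nup2-MN. The 5 runs with Nup2-MN below H2b-MN held 21 members (8.40%), where 6.80% of the array did. The longest, 857 to 863, had a mean of -0.63, with H2b-MN at -0.03 from uncleaved DNA. It was followed by 843 to 846 (mean -0.96) and 954 to 957 (mean -0.75). The runs above were 5 with 25 members after centring and 1 with 4 members under quantile normalization. The runs below were 1 with 3 members after centring and 3 with 12 members under quantile normalization. Runs over the whole array were not counted in these settings.

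Neighbours were more alike in the Nup2-MN difference than in the H2b-MN difference, among the members as among the other numbers. Over 249 pairs of adjacent members, Pearson's r was 0.595 for the Nup2-MN difference and 0.313 for the H2b-MN difference, and they were 0.616 and 0.335 over 998 pairs of the others. For Nup2-MN against H2b-MN it was 0.563 in the members and 0.632 in the others, and at a distance of 3 it was 0.247 in 247 pairs of members and 0.391 in 994 pairs of the others. Neighbours share arrays and hybridisation, and may share base composition, so these values describe the profile only.

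Among windows of 25 numbers, the Nup2-MN difference had its highest mean in 826 to 850 and its lowest in the next window. The mean was 0.10 ± 0.85 in 826 to 850 and -0.43 ± 0.60 in 851 to 875 (SD over 25 probe sets). The H2b-MN difference had means of 0.00 ± 0.73 and -0.11 ± 0.25 in these windows. Window 826 to 850 held 3 of the 9 members with Nup2-MN 2-fold or more above uncleaved DNA, and 7 of the 9 past 2-fold between the cleaved samples. The H2b-MN difference was highest in 876 to 900 (0.13 ± 0.42) and lowest in 801 to 825 (-0.16 ± 0.43).

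**Figure D4:**
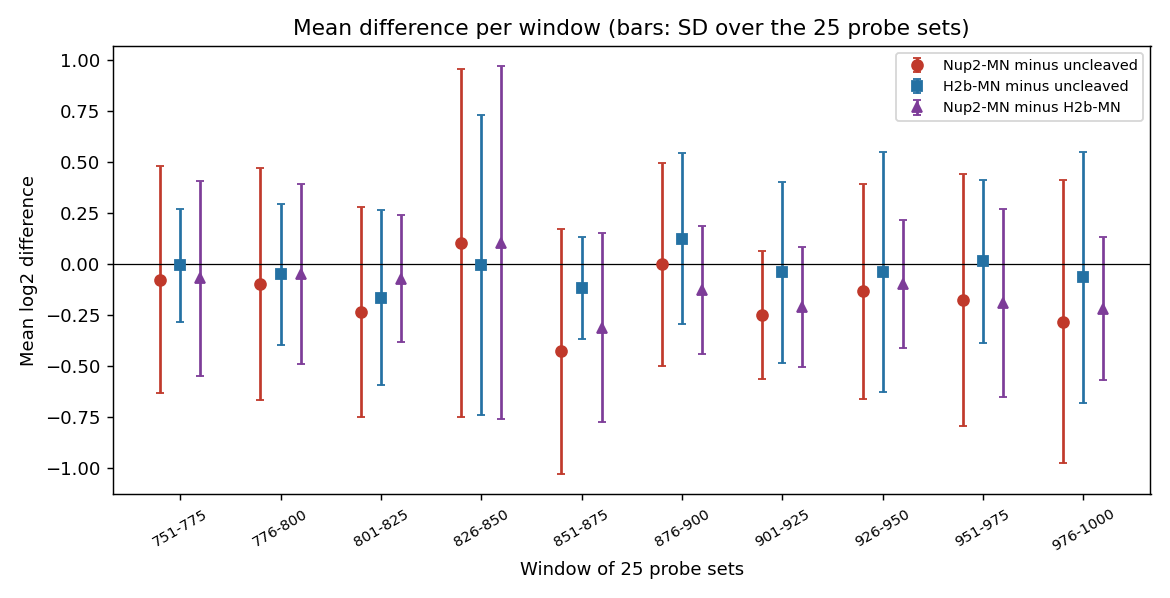
Mean log2 difference (y axis) in 10 consecutive windows of 25 probe sets (x axis) for Nup2-MN against uncleaved (circles), H2b-MN against uncleaved (squares) and Nup2-MN against H2b-MN (triangles), with bars of 1 SD over the 25 probe sets. The mean for Nup2-MN against uncleaved is -0.43 in 851 to 875, beside 0.10 in 826 to 850 and 0.00 in 876 to 900.

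The size of the differences varied with signal level. In the 51 members among the dimmest 20% of the array (mean log2 signal of the 3 samples below 6.20), the Nup2-MN difference had an SD of 0.33 and 0 were past 2-fold, against 4 of the 199 others of that range (2.01%). In the 56 members among the brightest 20% (8.60 and above), the SD was 0.73 and 5 were past 2-fold (8.93%), all above uncleaved DNA. Of the 194 others of that range, 19 were past 2-fold (9.79%), with 17 above and 2 below. Their median was 0.13, against 0.06 in those others. In the 48 members of middle signal (7.11 to 7.90) the median was -0.49, against -0.28 in the 202 others of that range. Past 2-fold there were 8.33% of the members and 12.4% of the others. The shares were 2.27% and 8.74% from 6.20 to 7.11, and 5.88% and 14.6% from 7.90 to 8.60. Among the others the SD did not rise steadily, at 0.73 in middle signal and 0.64 in the brightest 20%. The mean that sets these ranges includes Nup2-MN, so a high Nup2-MN value itself moves a probe set towards the brighter ranges. Level and difference are thus not independent here. The part of signal level in the counts above was not tested.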

How the data were processed

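DNA of 3 ChEC samples was read on Affymetrix tiling arrays of chromosome VI, per the deposited README. The authors grouped probes into sets of at most 16, none across an MboI site, and computed log2 values by RMA, a robust multi-array average, in Bioconductor 1.5. RMA includes quantile normalization, which acts against shifts common to most of the chromosome. An offset remained in the deposited columns, with whole-array medians of 7.42 in Nup2-MN, 7.58 in H2b-MN and 7.57 in uncleaved DNA. Each deposited log2 value is the mean of 3 independent experiments. The number of arrays limits the precision.

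Each sample was its own group, named from its description, with 1 column. Differences were taken without further normalization, filter or pseudocount, and no test was made. The README mentions SDs of the 3 experiments, which were not used here. The threshold was 2-fold. Named were the 5 highest and 5 lowest members per comparison, the 3 longest runs per side (0.5 log2, 3 or more neighbours), both ends of the range, and the extremes of signal. Probe sets in opposite directions past 2-fold were also to be named, and 0 were found. Others were chosen after their values were seen. The range of numbers uses no measured value, but the range and the lists were set with earlier results of these data known. Of the identifiers, 0 matched the RefSeq gene table. Scripts were tested on simulated data. Alternatives were centring, quantile normalization, a 10% low-signal filter and a 1.5-fold threshold. Python 3.11.15, numpy 2.4.6, pandas 2.3.3 and matplotlib 3.10.9 were used.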

Additional observations from a re-analysis of the deposited data

Results flagged for a closer look

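In 3 of the named probe sets the cleaved samples lay on opposite sides of uncleaved DNA, each by at least 0.5 on the log2 scale. They are 3 of the 250 members (1.20%), and 13 of the 1000 other probe sets (1.30%) met the same description, a share close to it. With 1 value per sample these differences were not tested. Nup2-MN exceeded H2b-MN by 1.97 at c6Mbo0831 (0.60 above uncleaved DNA in Nup2-MN, -1.37 in H2b-MN) and by 1.77 at its neighbour c6Mbo0832 (9.10 in Nup2-MN and 7.33 in H2b-MN, with 8.33 in uncleaved DNA). At c6Mbo0846 the order was turned, with a difference of -1.29 (-0.63 in Nup2-MN and 0.66 in H2b-MN).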

How the results depend on the processing

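No paired analysis was possible because each group has 1 column. No value here carries an error between experiments. With centring, Nup2-MN against uncleaved gave 16 probe sets 2-fold higher and 2 lower with a median of -0.13, and Nup2-MN against H2b-MN gave 8 higher and a median of 0.022, since the column medians differ. With quantile normalization the medians were -0.0099 for H2b-MN against uncleaved and -0.086 for Nup2-MN against H2b-MN; the cause was not tested. Without the lowest 10% by signal, the H2b-MN median was -0.014. At 1.5-fold, higher and lower counts were 38 and 73 for Nup2-MN against uncleaved and 18 and 22 for H2b-MN against uncleaved. For Nup2-MN against H2b-MN they were 17 and 35. These counts were larger by construction, and in all 3 comparisons more were lower than higher, the opposite of the balance at 2-fold. The whole array, counted at 0.5 log2, also had more lower than higher in all 3. The other 19 of 33 recomputed counts and medians stayed within 1.5 times their value. Of 72 recomputed differences of named probe sets and numbers of runs, 13 crossed the threshold or moved by over 1.5 times and 0 changed sign. Named differences were picked as the highest and lowest, and numbers of runs carry no sign, so this 0 says little about stability. The run counts by setting were added after the data were seen and cover the members only. Higher runs of Nup2-MN against uncleaved numbered 9 with centring and 4 with quantile normalization, and those of Nup2-MN against H2b-MN 5 and 1.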
